A study of Mus musculus with 6 samples.

Results

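Reported here are 41 genes of glycolysis and of the hypoxia response, out of 22377 genes in the deposited table, in RNA from tumors of mice with and without a reduced dose of Npm1. They were chosen by name, as 21 genes that carry glucose into the cell, break it down to pyruvate and lactate, regulate that flow or export the lactate, and 20 other genes that are known targets or parts of the hypoxia response. All 41 were found in the table, and all 41 passed the filter on low counts that left 13884 genes for testing. The 6 libraries come as 3 labelled wt and 3 labelled ko and knockdown, numbered as separate samples. A figure legend of the study gives fewer mice for this sequencing than libraries a group, so the number of animals behind the libraries is uncertain, and n below counts libraries. The study describes the material as CD45+ CD11b+ F4/80+ tumor-associated macrophages (TAMs) sorted from subcutaneous tumors of LLC, a mouse cell line from a Lewis lung carcinoma, in young adult Npm1+/+ and Npm1+/- mice of both sexes, with no treatment. The labels name tumor tissue and, beyond the words wt and ko, give no genotype, so the groups are called wt and labelled knockdown below.

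Npm1+/- mice lack a copy of Npm1 in every cell of the host and not in macrophages alone, and the deletion is not carried by the injected LLC cells. Npm1 (chr11:33152287-33163206, minus strand, GRCm38) encodes nucleophosmin, a nucleolar chaperone. Its level was 142, 380.2 and 381 CPM in wt replicates 1, 2 and 3 and 441, 499 and 343 CPM in labelled knockdown replicates 1, 2 and 3, where CPM are counts scaled to a common library size by the TMM method. The targeted gene was therefore no lower in labelled knockdown than in wt, with a log2 fold change (labelled knockdown against wt) of 0.51 ± 0.36 (SE, n = 3 and 3) and an adjusted p of 0.436 by the quasi-likelihood test of edgeR, adjusted by the Benjamini-Hochberg method. Without wt replicate 1, the lowest library, the estimate was 0.16 ± 0.18. Every direction given below is drawn from these labels, which the level of Npm1 does not bear out.

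Glycolysis splits glucose into pyruvate with a small gain of ATP that needs no oxygen, and pyruvate is then either burned in mitochondria or reduced to lactate and exported. When oxygen is short, the prolyl hydroxylases of the EGLN family no longer mark the HIF alpha subunits for destruction by VHL, and HIF paired with ARNT binds a short core sequence, ACGTG or GCGTG, near genes of glucose uptake, glycolysis, angiogenesis and mitophagy. In macrophages, HIF-1 is also raised by inflammatory signals, glycolysis fuels the inflammatory response, and TAMs in poorly perfused tumor regions are a known source of VEGF-A.

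The core sequences were looked up in the RefSeq promoters of the members, each running from 250 bases before to 50 bases after a start site (build GRCm38.p6). Promoters were given for 38 of the 41 members, all but Bnip3l, Epas1 and Ndrg1. Those below show the core, in capitals, in promoters of 6 genes with an unadjusted p under 0.05 in the comparison that follows (Slc2a1, Slc16a3, Egln1, Ankrd37, Ddit4 and, with GCGTG, Pfkfb4) and of 4 genes well short of it (Ldha, Pgk1, Hif1a and Car9). All are written 5′ to 3′ on the strand of the gene, so CACGT marks an ACGTG on the opposite strand.
Slc2a1: tcccgccccggACGTGctccccaggcc
Slc16a3: gtgcgcgggggACGTGccgcgcgacgg
Egln1: ggccgtggtgtACGTGcagcgcgcgcg
Ankrd37: agtgtttgggtACGTGaggccgcagcg
Ddit4: gaacgttgcgaACGTGcgcccggtgcc
Pfkfb4: tgacggatgggGCGTGcttagtccaaa
Ldha: gtgggttcccgCACGTccgctgggctc
Pgk1: aatggaagtagCACGTctcactagtct
Hif1a: ggctgagagcaACGTGggctggggtgg
Car9: tatttccgatgCACGTacagcccgtcc
The Slc2a1 stretch lies at chr4:119108698-119108724 with its core 36 bases before the start site, that of Slc16a3 at chr11:120949042-120949068 (14 bases before), that of Egln1 at chr8:124949307-124949333 (68 bases before), that of Ankrd37 at chr8:45999841-45999867 (6 bases before) and that of Ddit4 at chr10:59951942-59951968 (187 bases before). The Pfkfb4 stretch lies at chr9:108991774-108991800 (117 bases before), that of Ldha at chr7:46845759-46845785 (34 bases before), that of Pgk1 at chrX:106186958-106186984 (131 bases before), that of Hif1a at chr12:73907786-73907812 (70 bases before) and that of Car9 at chr4:43506997-43507023 (18 bases before). Egln1, Ankrd37 and Ddit4 are on the minus strand and the others on the plus strand. Distances are to the RefSeq start. In GENCODE, whose starts can differ, the stretches of Slc16a3, Ankrd37, Ldha, Hif1a and Car9 lie within the annotated gene, those of Slc2a1, Egln1 and Pfkfb4 in part, and those of Ddit4 and Pgk1 before it. The motif ACGTG, searched on both strands, was found in 27 of the 38 members with a promoter (71.1%), against 28.8% of 10865 tested genes with a promoter and 21.8% of all 27025 genes with one. GCGTG was found in 71.1% of members and in 53.8% of tested genes. Counted per promoter, since several members have more than 1, ACGTG was in 51.7% of 58 member promoters and 24.9% of 13855 promoters of tested genes. ACGTG is part of the E-box CACGTG, which was present in 6 members (15.8%) and in 11.4% of tested genes, and GC content averaged 62.2% in member promoters and 59.9% in those of tested genes. The members are known HIF targets for the most part, so their share of the core describes the choice of genes. In the comparison that follows, the median log2 fold change was -0.21 over the 27 members with ACGTG and -0.20 over the 11 without it.

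None of the 41 members passed an adjusted p of 0.05 in edgeR's quasi-likelihood test over all 6 libraries, and neither did any of the 13884 genes tested (0%). The smallest adjusted p among the members was 0.328, which was also the smallest over all genes. At an unadjusted p under 0.05 there were 8 members (19.5%), all 8 lower in the libraries labelled knockdown, whereas 15.2% of all genes tested reached that level, 8.31% lower and 6.9% higher. DESeq2, run on the same genes, called 1 member, Slc2a1, among 108 genes in all (0.9% of those given an adjusted p). In TMM-scaled CPM, the 3 labelled knockdown libraries lay wholly below the 3 wt libraries in 13 members (31.7%) and wholly above in 0, against 12.6% and 13.3% of all genes tested (25.9% in either direction). Estimates below 0 were found for 31 of the 41 members (75.6%) and for 47.9% of all genes tested, so the members leaned to lower values in the libraries labelled knockdown without any of them passing the adjusted test.

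The glycolytic genes lay further below 0 than the other hypoxia genes. Of the 21 glycolytic members, 18 had an estimate below 0 and 8 had groups that did not overlap, with a median log2 fold change of -0.26. Of the 20 other hypoxia members, 13 had an estimate below 0 and 5 had groups that did not overlap, with a median of -0.12. The median over all genes tested was 0.022. The difference between the 2 subsets was not tested. Their size depended on the scaling, because with FPKM values, which are divided by the total count and carry no TMM factor, all genes shifted up by a median of 0.14, the glycolytic median became -0.12 and the hypoxia median turned to 0.038. On that scale, 20.2% of all genes at an unadjusted p under 0.05 were lower in labelled knockdown, against 54.6% on the TMM scale. The 8 members at an unadjusted p under 0.05 had estimates below 0 on both scales, with -0.48 for Slc2a1, -0.54 for Pfkfb4 and -0.41 for Vegfa on the FPKM scale. Of the members with separate groups in TMM-scaled CPM, Pfkl, Pfkp, Bnip3l, Egln1 and Ankrd37 had overlapping groups in FPKM. For Ankrd37, wt replicate 2 was at 20.8 FPKM and labelled knockdown replicate 1 at 20.9 FPKM.

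**Figure D1:**
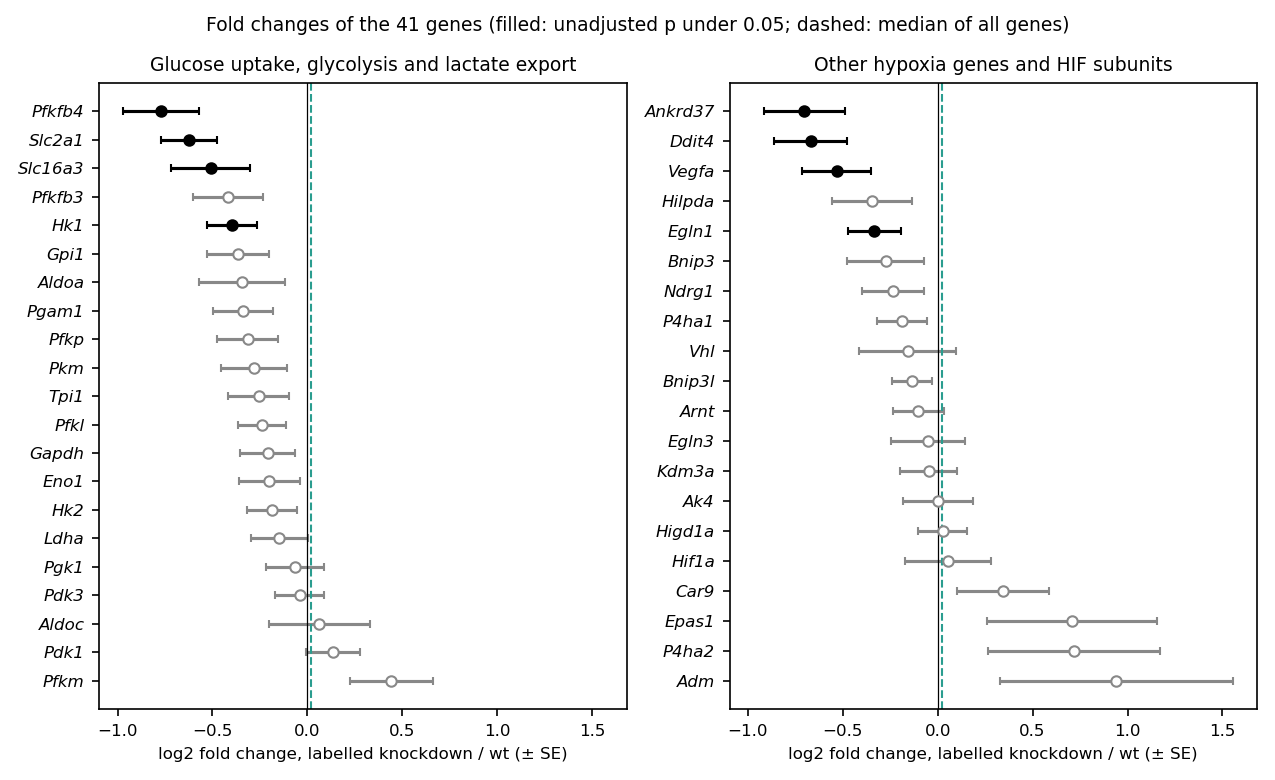
Log2 fold change, labelled knockdown against wt, with its SE from edgeR for each of the 41 genes, glycolysis on the left and other hypoxia genes on the right; filled points have an unadjusted p under 0.05 and the dashed line is the median of all genes tested. The filled points, 4 in each panel, all lie below 0, from -0.77 for Pfkfb4 to -0.33 for Egln1, and the widest error bar is that of Adm.

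Glucose uptake had the smallest unadjusted p of the members. Slc2a1 (chr4:119108711-119137983, plus strand) encodes GLUT1, the glucose carrier that HIF-1 is known to raise. Its level was 657, 766 and 707 CPM in the wt libraries and 469, 392 and 521 CPM in those labelled knockdown. All labelled knockdown libraries lay below all wt libraries, with a log2 fold change of -0.62 ± 0.15 (95% CI -0.97 to -0.28, unadjusted p = 0.0034, adjusted p = 0.328 by edgeR). DESeq2 gave it an adjusted p of 0.0257, and the adjusted p ranged from 0.000184 to 0.701 over the 17 other settings tried.

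Hexokinases trap glucose in the cell by phosphorylating it. Hk1 (chr10:62268855-62379908, minus strand) stood at 192, 214 and 173 CPM in wt and 152, 132 and 156 CPM in the libraries labelled knockdown. These groups did not overlap, and the log2 fold change was -0.40 ± 0.13 (unadjusted p = 0.0176, adjusted p = 0.328 by edgeR). Hk2, the hexokinase known to respond to hypoxia, had 166, 202 and 186 CPM in wt and 175, 168 and 144 CPM in labelled knockdown, and here the groups overlapped (-0.19 ± 0.13, unadjusted p = 0.192). Per length, Hk1 made up 53.7% ± 2.75 (SD, n = 3) of the summed FPKM of the pair in wt and 50.2% ± 4.12 (SD, n = 3) in labelled knockdown, a difference within the spread between libraries (exact permutation p = 0.3, two-sided, where 0.1 is the smallest that 3 against 3 can give).

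The next steps of the pathway had estimates below 0 but for the scarce Pfkm. Gpi1, which converts glucose 6-phosphate to fructose 6-phosphate, was at 1220.2, 1149 and 1054 CPM in wt and 873, 737 and 1049 CPM in labelled knockdown, and the groups met without overlapping (-0.36 ± 0.16, unadjusted p = 0.0598). Phosphofructokinase commits sugar to glycolysis, and its liver type Pfkl was at 202, 188 and 199 CPM in wt and 165, 146 and 188 CPM in labelled knockdown (-0.24 ± 0.13, unadjusted p = 0.102). The platelet type Pfkp had 422, 418 and 413 CPM in wt and 329.8, 273 and 407 CPM in labelled knockdown (-0.31 ± 0.16, unadjusted p = 0.0899). In both genes the third labelled knockdown library came within a few percent of the lowest wt library while the second lay far below it. The muscle type Pfkm went the other way at a low level, from 5.88 to 8.51 CPM in wt to 8.32 to 10.3 CPM in labelled knockdown with overlapping groups (0.44 ± 0.22, unadjusted p = 0.0793). Pfkp held 65.0% of the summed FPKM of the family in wt and 63.0% in labelled knockdown, Pfkl 33.5% and 34.5%, and Pfkm 1.47% and 2.48%. The shares of each of the 3 genes overlapped between the groups, those of Pfkm barely, with 1.80% in wt replicate 2 and 1.80% in labelled knockdown replicate 3 (exact two-sided permutation p = 0.2).

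Of the bifunctional enzymes that make and remove fructose 2,6-bisphosphate, the activator of phosphofructokinase, Pfkfb4 had the lowest estimate of all members. Pfkfb4 (chr9:108991778-109032228, plus strand) measured 68.7, 44.9 and 48.3 CPM in wt and 33.1, 26.5 and 35.2 CPM in labelled knockdown. Its groups did not overlap, although wt replicate 1 stood above the other two (-0.77 ± 0.20, 95% CI -1.23 to -0.31, unadjusted p = 0.00523, adjusted p = 0.328 by edgeR). Pfkfb3, its more abundant relative, ranged from 396 to 472 CPM in wt and from 251 to 396 CPM in labelled knockdown, touching at the edge (-0.42 ± 0.18, unadjusted p = 0.0554). Pfkfb3 made up 86.3% of the FPKM of this pair in wt and 88.8% in labelled knockdown.

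None of the enzymes of the lower pathway reached an unadjusted p of 0.05. Gapdh, which yields the NADH of glycolysis, was at 176, 170.5 and 149.9 CPM in wt and 148, 119.7 and 161 CPM in labelled knockdown, overlapping (-0.21 ± 0.14, unadjusted p = 0.189). Pgam1, phosphoglycerate mutase, was at 308, 312 and 288 CPM in wt and 240.4, 192 and 285 CPM in labelled knockdown (-0.34 ± 0.16, unadjusted p = 0.0679). It was the lone gene of the lower pathway whose groups did not overlap, by a margin of a few CPM. Pkm, pyruvate kinase, was at 4066, 4845 and 3775 CPM in wt and 3563, 3033 and 3848 CPM in labelled knockdown, with the third labelled knockdown library above the third wt library (-0.28 ± 0.18, unadjusted p = 0.15). Overlapping groups and unadjusted p of 0.687, 0.248, 0.154 and 0.169 were found for Pgk1 (-0.064 ± 0.15), Eno1 (-0.20 ± 0.16), Tpi1 (-0.26 ± 0.16) and Aldoa (-0.34 ± 0.23), which handle the 3-carbon sugars or, for Aldoa and Aldoc, form them. Aldoc had an estimate of 0.063 ± 0.27, of no clear direction.

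At the fate of pyruvate the estimates were near 0, whereas that of lactate export was lower. Ldha, which reduces pyruvate to lactate, was at 1144, 1346 and 1125 CPM in wt and 1126, 956 and 1183 CPM in labelled knockdown (-0.15 ± 0.15, 95% CI -0.49 to 0.20). These groups overlapped, and on the FPKM scale the estimate turned to 0.0011. Pdk1 and Pdk3, kinases that shut off pyruvate dehydrogenase, had estimates of 0.13 ± 0.14 and -0.040 ± 0.13. Slc16a3 (chr11:120948480-120960868, plus strand) encodes MCT4, the lactate exporter of glycolytic cells. It was at 619, 649 and 537 CPM in wt and 439, 304 and 525 CPM in labelled knockdown. Its groups did not overlap, though the third libraries of each were close, with a log2 fold change of -0.51 ± 0.21 (unadjusted p = 0.0416, adjusted p = 0.328 by edgeR). Without wt replicate 1 the unadjusted p of edgeR was 0.0619.

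**Figure D2:**
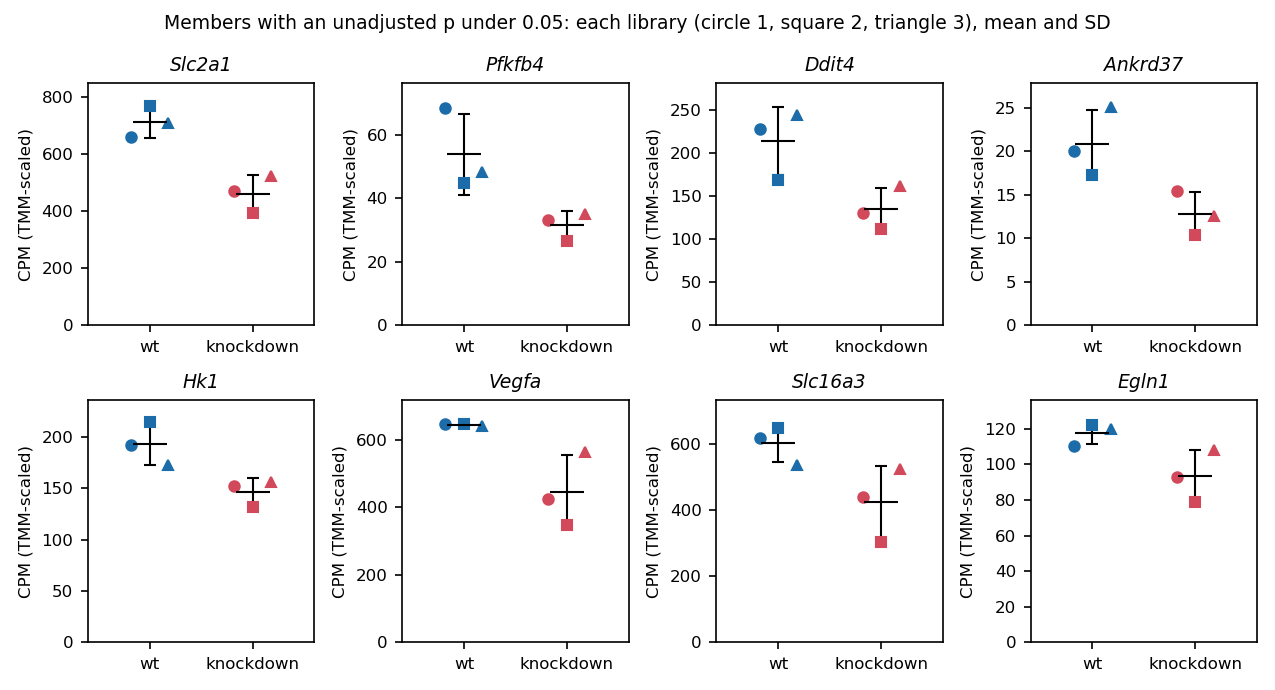
TMM-scaled CPM (linear axis from 0) of the 8 genes with an unadjusted p under 0.05, one panel a gene, with each library as a point (circle, square and triangle for replicates 1, 2 and 3), wt in blue and labelled knockdown in red, and bars for the mean and SD of 3 libraries. In every panel the red points lie below the blue ones, and the red square, labelled knockdown replicate 2, is the lowest point.

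Among the hypoxia genes outside glycolysis, the secreted factor VEGF-A stood out for its tight wt values. Vegfa (chr17:46016993-46032369, minus strand) is the main angiogenic signal of hypoxic tissue. It was at 648, 647 and 641 CPM in wt and 426, 349 and 563 CPM in labelled knockdown. The wt libraries were nearly equal while those labelled knockdown spread widely below them (-0.53 ± 0.18, 95% CI -0.96 to -0.11, unadjusted p = 0.021, adjusted p = 0.328 by edgeR). Adm, adrenomedullin, a vessel-dilating peptide, had the highest estimate of all members and the least certain one, with 2.78, 21.8 and 16.1 CPM in wt and 29.9, 29.1 and 19.0 CPM in labelled knockdown (0.94 ± 0.62, unadjusted p = 0.167). The size of that estimate rested on wt replicate 1, without which it was 0.45 ± 0.23.

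Ddit4 and Ankrd37 had the lowest estimates of this subset. Ddit4 (chr10:59949669-59951834, minus strand) encodes REDD1, a stress-induced brake on mTORC1. It was at 228, 169 and 244 CPM in wt and 129.6, 112 and 162 CPM in labelled knockdown, without overlap (-0.67 ± 0.19, unadjusted p = 0.00898, adjusted p = 0.328 by edgeR). Ankrd37 (chr8:45996902-46005707, minus strand), a known HIF-1 target, was at 20.1, 17.3 and 25.0 CPM in wt and 15.4, 10.4 and 12.6 CPM in labelled knockdown. Its groups did not overlap either (-0.70 ± 0.21, unadjusted p = 0.0117, adjusted p = 0.328 by edgeR). The annotated span of Ankrd37 overlaps Ufsp2 and Lrp2bp on the opposite strand, and since the strand setting of the counting is not given in the sources used here, reads of these genes cannot be told apart from its own. In all, 20 members overlap another annotated gene. Slc2a1, Hk1, Pfkp, Pfkm, Tpi1, Gapdh and Adm are among those that overlap a counted gene on the opposite strand.

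Genes of HIF degradation and the HIF subunits themselves gave a mixed picture. Egln1 (chr8:124908587-124949324, minus strand), the oxygen-sensing prolyl hydroxylase PHD2, was at 111, 122 and 120.0 CPM in wt and 93.2, 78.7 and 108 CPM in labelled knockdown. These did not overlap, narrowly (-0.33 ± 0.14, unadjusted p = 0.0474, adjusted p = 0.328 by edgeR). Egln3, or PHD3, a relative that hypoxia induces strongly, was at 136, 215 and 209 CPM in wt and 193, 156 and 192 CPM in labelled knockdown, with overlap and an estimate near 0 (-0.050 ± 0.20). Egln1 accounted for 35.5% ± 4.72 (SD, n = 3) of the summed FPKM of the pair in wt and 30.6% ± 1.71 (SD, n = 3) in labelled knockdown. Its share was highest in wt replicate 1, and the other two wt libraries were at 32.7% and 32.9% (mean 32.8%), against 29.2%, 30.1% and 32.5% in labelled knockdown. The 2 sets of shares did not overlap, at an exact two-sided permutation p of 0.1, the smallest that 3 against 3 allows. This was the lone family of the 9 examined in which they did not overlap, and with 9 compared no adjusted p could fall under 0.1.

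Hif1a, the HIF subunit that accumulates in hypoxia, was at 514, 832 and 899 CPM in wt and 746, 694 and 893 CPM in labelled knockdown. Apart from wt replicate 1, the lowest of the 6, the libraries ran over a common range (0.055 ± 0.23, 95% CI -0.47 to 0.58, and -0.16 ± 0.16 without that library). Its partner Arnt had an estimate of -0.10 ± 0.13 and Vhl, the ubiquitin ligase subunit that receives hydroxylated HIF, -0.16 ± 0.26. Epas1, which encodes HIF-2 alpha, was scarce at 1.41 to 4.30 CPM in wt and 4.10 to 6.97 CPM in labelled knockdown (0.71 ± 0.45, and 0.36 ± 0.31 without wt replicate 1, the lowest). By summed FPKM, Hif1a made up 99.6% of the 2 alpha subunits in wt and 99.4% in labelled knockdown. These are levels of mRNA, whereas HIF-1 alpha is controlled mainly as a protein.

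Mitochondrial members and the rest of the subset did not reach an unadjusted p of 0.05. Bnip3, which tags mitochondria for autophagy, was at 154, 231 and 209 CPM in wt and 171, 129 and 192 CPM in labelled knockdown, with overlap (-0.27 ± 0.20, unadjusted p = 0.217). Its relative Bnip3l, or NIX, was at 129, 129 and 135 CPM in wt and 116, 114 and 129 CPM in labelled knockdown, where the groups were separate by a hair (-0.13 ± 0.11, unadjusted p = 0.247) and the estimate turned to 0.012 on the FPKM scale. The estimates of Higd1a, a respiratory chain factor, and Ak4, a mitochondrial adenylate kinase, were 0.026 ± 0.13 and 0.0011 ± 0.19. Hilpda, which coats lipid droplets and blocks their breakdown, ranged from 245 to 408 CPM in wt and from 213 to 298 CPM in labelled knockdown (-0.35 ± 0.21). Without wt replicate 1, Hilpda reached -0.52 ± 0.18 (unadjusted p = 0.0191) and Bnip3 -0.43 ± 0.18 (unadjusted p = 0.0436). Ndrg1, a stress-response gene, had -0.23 ± 0.16, the histone demethylase Kdm3a -0.048 ± 0.15 and the carbonic anhydrase Car9 0.34 ± 0.24. Of the collagen prolyl hydroxylase subunits, P4ha1 had -0.19 ± 0.13, and P4ha2, which ranged from 2.33 to 8.91 CPM in wt and from 7.25 to 11.1 CPM in labelled knockdown, 0.72 ± 0.45, or 0.33 ± 0.25 without wt replicate 1, the lowest.

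Labelled knockdown replicate 2 had the lowest values. In TMM-scaled CPM, it held the lowest value of all 6 libraries in 18 of the 21 glycolytic members and in 11 of the 20 hypoxia members, against 3740 of the 13884 genes tested. This depended on the scaling, since this library carried the largest TMM factor, 1.15. In FPKM, which carries no such factor, it was the lowest in fewer members of both subsets, though still in most glycolytic ones. On that scale it was the highest library for Hk2, and wt replicate 1 was the lowest for Pgk1, Ldha, Bnip3 and Hilpda. Labelled knockdown replicate 3 lay above both other labelled knockdown libraries in 19 glycolytic and 12 hypoxia members. Without replicate 2, the count of glycolytic members at an unadjusted p under 0.05 went from 4 to 2 and the hypoxia count from 4 to 2, while the count over all genes went from 2112 to 669 (4.75%). Without replicate 3 the glycolytic count was 10 and the hypoxia count 4, at 2466 of all genes (17.3%). Leaving out labelled knockdown replicate 1 took the hypoxia count to 2 as well, at 775 of all genes (5.49%). wt replicate 1 was the lowest library in 6 hypoxia members, among them Hif1a, Adm, P4ha2 and Epas1, and in 2 glycolytic members, and was the lowest in 4649 of all genes.

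**Figure D3:**
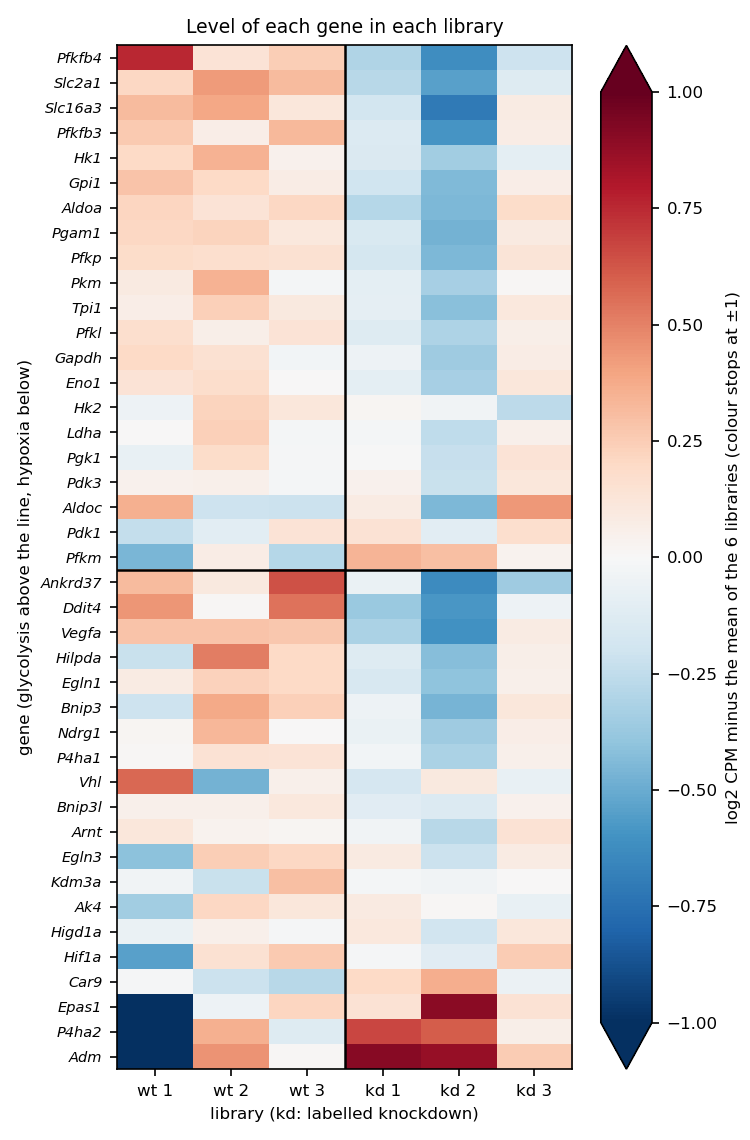
Heatmap of log2 CPM minus the mean of the 6 libraries for each of the 41 genes (rows, glycolysis above the line and other hypoxia genes below, ordered by fold change) in each library (columns, kd for labelled knockdown); color runs from blue at -1 or lower to red at 1 or higher. The kd 2 column is blue in nearly all glycolytic rows, kd 3 is close to 0, and wt 1 is dark blue in Epas1, P4ha2 and Adm.

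The 2 libraries of each group closest to each other by a chi-square of their counts, wt replicates 2 and 3 and labelled knockdown replicates 1 and 2, were also compared alone. This choice was made with earlier results of these data known, and taking close pairs lowers the spread by construction. By the correlation of log2 values, labelled knockdown replicates 1 and 3 were the closer pair (0.988, against 0.986 for replicates 1 and 2). edgeR again called 0 members and 0% of 14174 genes, with 17 members at an unadjusted p under 0.05 (23.2% of all genes), of which 16 were lower (10.4% of all genes tested were lower at this level) and 1, Adm, was higher (12.8% of all genes). DESeq2 called 12 members, all lower (of the 11426 genes given an adjusted p, 11.7% were called, 6.77% lower and 4.9% higher). These were Slc2a1, Gpi1, Pfkp, Pfkfb3, Pfkfb4, Pgam1, Slc16a3, Vegfa, Bnip3, Egln1, Ddit4 and Hilpda. On these 4 libraries the log2 fold change was -0.78 ± 0.16 for Slc2a1 and the median was -0.39 for the glycolytic and -0.24 for the hypoxia members. With labelled knockdown replicates 1 and 3 as the pair, an alternative chosen after seeing the data, DESeq2 called 0 members (0.292% of the 12326 genes given an adjusted p) and edgeR 0. In edgeR 3 glycolytic and 3 hypoxia members were then at an unadjusted p under 0.05 (6.75% of 13949 genes). The calls of DESeq2 on 4 libraries thus depended on which labelled knockdown library was left out.

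Markers of cell types also differed between the libraries. All 16 macrophage markers tested, among them Adgre1 (F4/80, 127 to 302 CPM over the 6 libraries) and Csf1r (547 to 1612 CPM), had estimates below 0, and 10 of them reached an unadjusted p under 0.05, at a median of -0.54. Their summed level was between 18921 and 24779 CPM in wt and between 11125 and 18579 CPM in labelled knockdown, with replicate 2 the lowest. All 12 neutrophil markers tested were below 0 as well, at a median of -0.80 and a summed level of 2006 to 2246 CPM in wt and 904 to 1746 CPM in labelled knockdown. The medians of both lists were further below 0 than that of the glycolytic members. Fibroblast markers had estimates above 0 in 12 of 13 tested, with a summed level of 58.0 to 686 CPM in wt and 522 to 991 CPM in labelled knockdown. The wt library at 58.0 CPM was replicate 1, which is also the lowest in Adm, P4ha2, Epas1 and Hif1a. T cell markers had estimates above 0 in 9 of 9 tested, with sums of 91.5 to 296 CPM in wt and 237 to 449 CPM in labelled knockdown, and markers of epithelial or carcinoma cells in 5 of 7 tested, with sums of 37.8 to 156 CPM and 147 to 222 CPM. Endothelial markers had estimates above 0 in 6 of 9 tested, at a median of 0.68. That median was 0.24 without wt replicate 1, the lowest library in 6 of the 9. They summed to 34.2 to 43.1 CPM in wt and 32.1 to 37.3 CPM in labelled knockdown. B cell markers (3 of 6 above 0) summed to between 8.74 and 71.3 CPM and dendritic cell markers (3 of 8 above 0) to between 217 and 372 CPM. None of the markers of these 8 lists passed an adjusted p of 0.05 in edgeR, although DESeq2 called 2 macrophage markers. At an unadjusted p under 0.05 in edgeR were 6 neutrophil markers, all lower, and 4 T cell markers, all higher. Of 4 fibroblast markers at that level, 3 were higher and 1 was lower. Over all genes tested, 15.2% reached it, 8.31% lower and 6.9% higher. Per 100 CPM of macrophage markers, the glycolytic members summed to 54.9, 75.0 and 68.4 CPM in wt and 81.7, 87.9 and 69.95 CPM in labelled knockdown. For the hypoxia members these sums were 13, 19.8 and 20.6 CPM in wt and 22.2, 24.6 and 19.55 CPM in labelled knockdown. In bulk RNA, fewer cells of a type and less RNA per cell cannot be told apart, and the part of cell makeup in the values of the members was not tested.

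**Figure D4:**
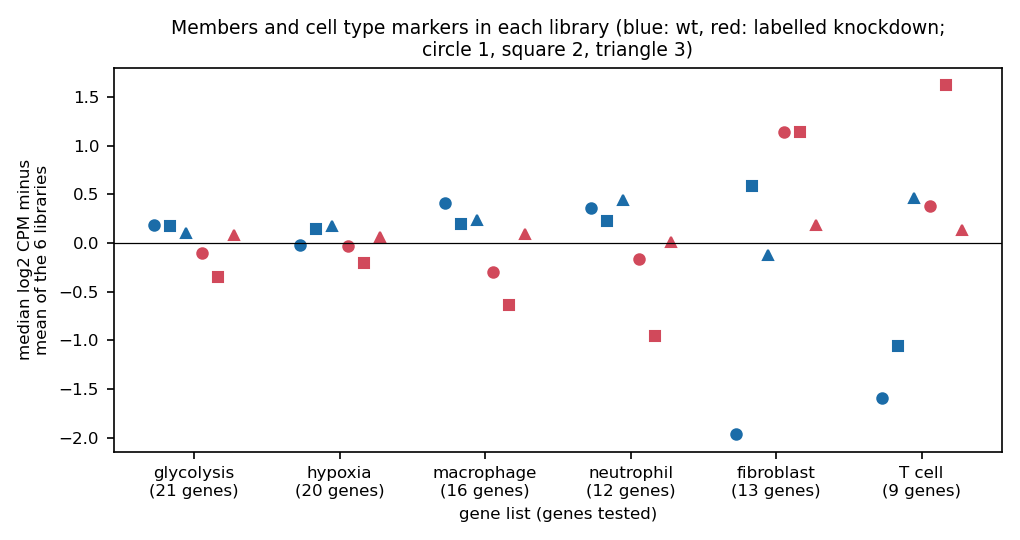
Median over the genes of each list of log2 CPM minus the mean of the 6 libraries, for the glycolytic and the hypoxia members and 4 lists of cell type markers (number of genes tested in parentheses), with wt libraries in blue and those labelled knockdown in red (circle, square and triangle for replicates 1, 2 and 3). The red square is the lowest point in the glycolysis, hypoxia, macrophage and neutrophil lists and the highest in the T cell list, and the blue circle is the lowest in the fibroblast list.

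Other genes of the same pathways, listed by function, had medians less far below 0 than the glycolytic members (-0.26). That of glycogen turnover and the pentose phosphate pathway, -0.21, was close to that of all 41 members, -0.20. Of 25 other glycolytic genes tested, 18 had estimates below 0, 4 of them and 0 of those above 0 at an unadjusted p under 0.05, with a median of -0.11. The lowest p among them belonged to the myeloid hexokinase Hk3 (-0.63 ± 0.17, unadjusted p = 0.00619), the sugar carrier Slc2a6 (-0.58 ± 0.16) and the monocarboxylate carrier Slc16a7 (-0.65 ± 0.24), and, above 0, to the monocarboxylate carrier Slc16a1 (0.69 ± 0.31), the phosphatase Tigar (0.42 ± 0.20) and the pyruvate dehydrogenase phosphatase Pdp1 (0.50 ± 0.24). Of 39 other hypoxia genes tested, 21 had estimates below 0 and 18 above, with 7 and 4 at an unadjusted p under 0.05 and a median of -0.070. They included the transferrin receptor Tfrc (1.00 ± 0.36), Stbd1 (0.88 ± 0.33) and the nuclear receptor Rora (1.17 ± 0.48) above 0, and Narf (-0.67 ± 0.22), the heme oxygenase Hmox1 (-0.48 ± 0.17) and Zfp395 (-0.53 ± 0.19) below 0. Of 18 genes of glycogen turnover and the pentose phosphate pathway, 12 had estimates below 0, with 5 lower and 1 higher at an unadjusted p under 0.05 and a median of -0.21. Among these were the NADPH-yielding enzymes G6pdx (-0.64 ± 0.21) and Pgd (-0.47 ± 0.17) and the glycogen synthase Gys1 (-0.39 ± 0.15) below 0, and the phosphorylase kinase subunits Phka1 (0.48 ± 0.18) and Phkb (0.33 ± 0.20) and the phosphorylase Pygb (0.20 ± 0.12) above 0. In edgeR's test, 0 genes of these 3 lists passed an adjusted p of 0.05. The shares at an unadjusted p under 0.05 in either direction were 16%, 28.2% and 33.3% in the order given. Over all genes tested the share was 15.2%, with 8.31% lower and 6.9% higher.

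Levels per length, as FPKM (fragments per length and library total), were highest for Eno1, Pgk1, Pkm and Tpi1. Mean FPKM over the 6 libraries was 863 for Eno1, 671 for Pgk1, 498 for Pkm, 456 for Tpi1 and 348 for Gpi1, followed by 262 for Hilpda, 216 for Slc2a1, 214 for Ldha, 182 for Ndrg1 and 153 for Hif1a. In this order, the libraries of Eno1 did not overlap those of Pgk1, nor those of Pgk1 those of Pkm, whereas the neighbours from Pkm to Hif1a overlapped. The order depends on the gene length that FPKM divides by, which was 2005 bases for Eno1, 1825 for Pgk1 and 7687 for Pkm. In CPM, Pkm stood above both, with wt means of 4229 for Pkm, 1861 for Eno1 and 1256 for Pgk1. Whether these lengths match the transcripts present was not tested. A mean of at least 100 FPKM was found in 15 members, 9 of glycolysis and 6 of the hypoxia subset, and 7 members were under 5 FPKM, down to 0.769 FPKM for Epas1. Aldoa, an abundant enzyme in most tissues, was at 4.23 FPKM, far under Tpi1, its neighbour in the pathway, and Gapdh was at 86.0 FPKM. The annotation gives Aldoa as 2 adjacent entries on chromosome 7, and several glycolytic genes have near-identical copies elsewhere, of which Eno1b, with 695 to 1048 counts a library, is listed separately. Reads that match such copies can be lost or split in counting, so the levels of Aldoa, Gapdh, Eno1, Pgk1, Ldha, Tpi1 and Pkm per length are uncertain. The part of the counting in the low level of Aldoa was not tested.

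**Figure D5:**
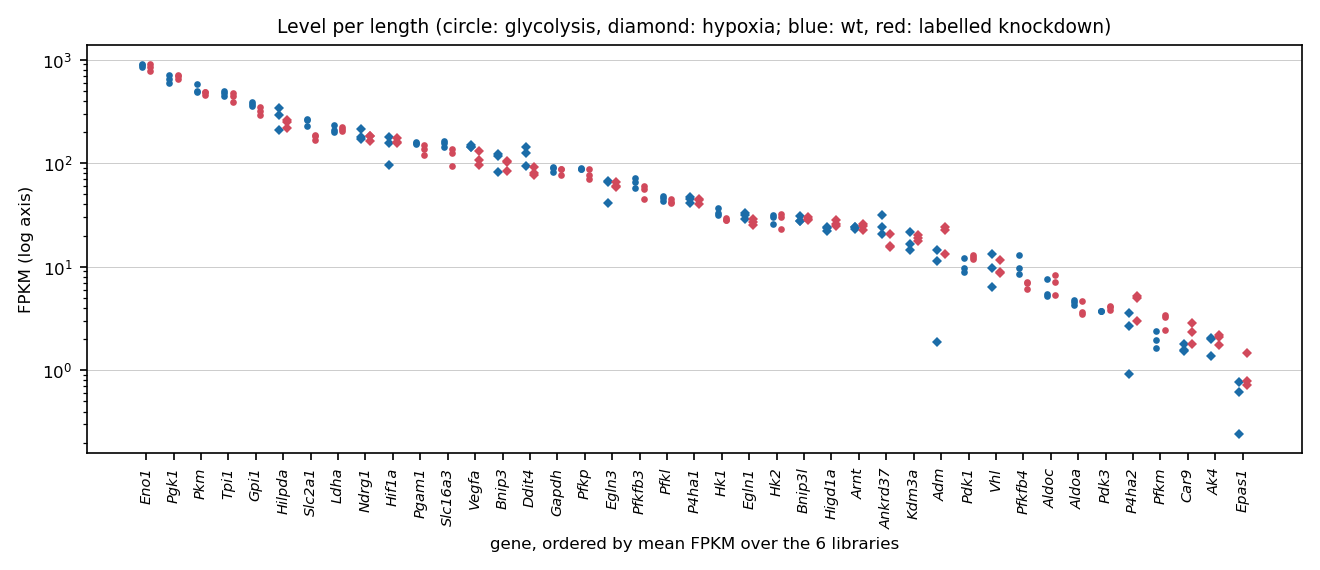
FPKM on a log axis of the 41 genes in each library (blue for wt, red for labelled knockdown, circles for glycolysis and diamonds for other hypoxia genes), ordered by the mean over 6 libraries. The levels run from 863 FPKM for Eno1 to 0.769 FPKM for Epas1, and wt replicate 1 lies far below the other libraries in Adm, P4ha2 and Epas1.

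Total counts were between 36550775 and 38147320 a library, so 3 counts, the most that a count of 0 allows, correspond to 0.0716 to 0.0846 CPM, for counting error only. The members took between 1.43% and 1.77% of all counts. On the first principal component of log2 CPM, which carried 68.0% of the variance, wt replicate 1 stood apart at -108, with the other 5 libraries between -4.54 and 52.0. Without it, edgeR called 0% of 14311 genes and 0 members, 9 members reached an unadjusted p under 0.05, all lower (5.38% of all genes tested were lower and 6.81% higher at this level), and the medians were -0.29 for the glycolytic and -0.16 for the hypoxia members.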

How the data were processed

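RNA was sequenced in 6 libraries, 3 labelled wt and 3 labelled ko and knockdown. The authors deposited raw whole-number read counts for each gene and FPKM values, which equal those counts divided by a gene length and by the library total (largest deviation 6.66e-16). Per the study's methods, RNA of sorted macrophages was isolated with the RNeasy Mini Kit, turned into cDNA with a SMARTer kit for low input and read from both ends, whereas the labels name tumor tissue, TRIzol and a small RNA protocol. The submitters' processing notes name the build mm10, and the aligner, counting tool, annotation and strand setting are not given in the sources used here.

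Counts were fitted with edgeR 4.0.16 in R 4.3.3 (filterByExpr, TMM factors, glmQLFit, glmQLFTest), wt against labelled knockdown over all 6 libraries, with Benjamini-Hochberg adjustment over the 13884 genes tested and a threshold of 0.05. Standard errors were taken as the size of the log2 fold change over the root of its F statistic, confidence intervals are at 95%, and log2 CPM used a prior count of 2. Total counts were 36550775 to 38147320 a library, and p-values measure the spread between these samples, which may be technical. Shares of FPKM within gene families were compared with exact permutation tests, unadjusted. Loci are from GENCODE M21 (GRCm38) and promoters from RefSeq (GRCm38.p6). Scripts were tested on simulated data. Figures used Python 3.11.15 and matplotlib 3.10.9.

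The members, marker lists and pathway lists were chosen with earlier results of these data known. All members are named. Values of every library are given for members with an unadjusted p under 0.05, for members whose groups do not overlap, and for Slc2a1, Hk2, Gapdh, Pkm, Ldha, Hif1a, Vegfa, Bnip3 and Egln3. Of the other pathway genes, the 3 with the smallest p in each direction per list are named. Alternatives were RLE and upper quartile factors, no filter, DESeq2 1.42.0, limma 3.58.1 on log2 of FPKM plus 1 or 0.1, a block for the replicate number, leaving out each library in turn, the 4 libraries without wt replicate 1 and labelled knockdown replicate 3 or, added after seeing the data, replicate 2, and the 14 enzymes from glucose to pyruvate alone.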

Additional observations from a re-analysis of the deposited data

How the results depend on the processing

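Over 17 settings, 28 of the 41 members kept the direction of their estimate in every one and 13 reversed in at least 1 (58 of 697 values). Every edgeR and limma setting called 0 members at an adjusted p of 0.05, and 0 genes but for 1 gene in edgeR without wt replicate 1 and labelled knockdown replicate 2, a setting added after seeing the data. DESeq2 called 108 genes and 1 member (Slc2a1), and without wt replicate 1 and labelled knockdown replicate 3 it called 1333 genes and 12 members. Without wt replicate 1 and labelled knockdown replicate 2 it called 36 genes and 0 members, with 864 genes at an unadjusted p under 0.05 (942 in edgeR), and the estimates that reversed were 0.045 for Pdk3, -0.097 for Hif1a, 0.011 for Arnt, 0.051 for Vhl and -0.17 for Ak4. The cause of the difference between the tools was not tested. Without wt replicate 1 and labelled knockdown replicate 3, DESeq2 had 3170 genes, 13 glycolytic and 10 hypoxia members at an unadjusted p under 0.05, the medians were -0.42 and -0.27, and the estimates that reversed were -0.033 for Pdk1, -0.30 for Hif1a, 0.13 for Vhl, -0.089 for Higd1a and -0.15 for Ak4. Genes at an unadjusted p under 0.05 in edgeR numbered 2112, and 669 to 3290 with libraries left out (669 without labelled knockdown replicate 2, 775 without replicate 1, 3290 without wt replicate 1 and labelled knockdown replicate 3). The glycolytic members at that level numbered 4, and 2 to 10 with libraries left out, and the hypoxia members 4, and 2 to 7. With libraries left out in edgeR, the hypoxia median, -0.12, ran from -0.24 to -0.070 and the glycolytic median, -0.26, from -0.39 to -0.18. For the 14 enzymes alone it was -0.25.

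On the log2 FPKM scale, with a pseudocount of 1 and of 0.1, the hypoxia median turned to 0.038 and 0.043, all genes shifted by a median of 0.14 and 0.15, and 20.2% and 21.5% of the genes at an unadjusted p under 0.05 were lower, against 54.6%. FPKM values carry no TMM factor, which was 1.05 and 1.15 in labelled knockdown replicates 1 and 2 and under 1 in the other libraries. The estimates that reversed there were 0.081 and 0.081 for Pgk1, 0.0011 and 0.0011 for Ldha, 0.081 and 0.10 for Pdk3, 0.012 and 0.013 for Bnip3l, 0.12 and 0.12 for Egln3, 0.036 and 0.038 for Arnt, 0.040 and 0.048 for Vhl and 0.11 and 0.12 for Kdm3a. Among estimates that reversed with a library left out, the range was -0.17 to 0.47 for Aldoc, -0.21 to 0.021 for Pgk1, -0.0028 to 0.23 for Pdk1, -0.11 to 0.057 for Pdk3, -0.28 to 0.060 for Egln3, -0.27 to 0.19 for Hif1a, -0.21 to 0.022 for Arnt, -0.39 to 0.15 for Vhl, -0.057 to 0.11 for Higd1a, -0.16 to 0.093 for Kdm3a and -0.16 to 0.11 for Ak4. Ak4, at 0.0011, also turned to -0.014 with RLE factors, -0.012 with no filter and -0.014 with DESeq2.

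Deviations from the group mean correlated at -0.24, 0.060 and -0.34 between the libraries numbered 1, 2 and 3. Between libraries of unlike number the correlations ran from -0.29 to 0.42. The highest were 0.42 for wt replicate 1 with labelled knockdown replicate 3, 0.36 for wt 3 with labelled knockdown 2, and 0.34 for wt 2 with labelled knockdown 1. These values cannot decide whether the numbers pair the libraries. With 3 libraries a group, wt replicate 1, which stood apart, weighs on the deviations of all wt libraries. With the replicate block, 0 genes and 0 members were called, 1606 genes, 3 glycolytic and 3 hypoxia members reached an unadjusted p under 0.05, and the medians were -0.27 and -0.11. Counts of the members were at least 50 in every library, and the 3 libraries a group limit the precision.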
